A study of Rattus norvegicus with 6 samples.

Results

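Expressed long non-coding RNA genes were examined in primary cultures of neonatal rat cardiomyocytes transfected with an siRNA against DYRK1A or with a scrambled control. A gene was included when it had an Ensembl identifier, was listed as lincRNA (long intergenic non-coding RNA), antisense RNA, lncRNA or processed transcript, and had at least 100 counts summed over the 6 libraries. These criteria gave 141 genes, of 3230 rows with such biotypes, 32883 annotated genes and 43035 features in the count table. Of the 141, 104 were listed as lincRNA, 30 as processed transcript and 7 as antisense RNA. The members were thus chosen by their listed biotype and by their counts summed over all libraries. The sum makes no use of the groups, but it sets the level of the members, so their levels are given as a description. A gene near the minimum can still reach it mainly through the group in which it is higher.

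The cardiomyocytes came from hearts of Sprague-Dawley rats, of postnatal day 1 in the labels and aged 1 to 2 days in the methods. Both groups were transfected and kept for 48 h, one with scramble siRNA (si-NC) and the other with siRNA against the kinase DYRK1A (si-DYRK1A). Each group has 3 libraries described as biological replicates. The number of hearts behind each culture was not found in the labels or methods. The libraries hold 10325074 to 11921772 counts each, and the median member has 231 counts over all 6, which leaves a wide counting error.

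In the annotated Dyrk1a row, si-NC had 3, 0 and 1 counts and the libraries labelled si-DYRK1A had 2, 1 and 0, which cannot check the labels. An unannotated transcript over the same gene on the same strand had 777, 919 and 968 counts in si-NC and 971, 851 and 944 in si-DYRK1A. Its log2 fold change was 0.08 with a standard error (SE) of 0.0575, and the edgeR quasi-likelihood test gave an adjusted p of 0.374. A lower Dyrk1a level was therefore not visible in the libraries labelled si-DYRK1A, and every direction given for si-DYRK1A rests on the labels.

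Long non-coding RNAs are transcripts with no known protein product. Many are spliced and polyadenylated like mRNAs, are made at low levels and in few tissues, and differ between species more than protein-coding genes do. Some act in the nucleus on chromatin or on splicing, some serve as hosts from whose introns small nucleolar RNAs (snoRNAs) or microRNAs are cut, and for others the act of transcription near a protein-coding gene is what affects that gene. In an annotation the class also takes in processed transcripts, which are spliced RNAs without a listed reading frame, and these can be pieces of protein-coding genes.

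Counts were rare in the annotated rows of this class. Of the 3230 rows, 1612 (49.9%) had no count in any library and a further 1477 had 1 to 99 counts. The 141 members make up 4.37% of the rows, whereas 8178 of 22250 annotated protein-coding genes (36.8%) had at least 100 counts. A row without counts need not mean a silent gene, since reads can stand in an unannotated transcript that covers it. The Tug1 row, for example, had no counts, but Tug1 was testable with a covering transcript. Rows of protein-coding genes can lack counts in the same way. The summed counts of the members ranged from 100 to 8137. Together the members held between 0.143% and 0.149% of the counts of a library, and the 10 members with most counts held 45.7% of the members' total.

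On the scale of FPKM, the fragment count divided by gene length and scaled for library size, which allows levels of different genes to be set side by side, the median member stood at 2.46 in si-NC, against 9.62 for protein-coding genes with at least 100 counts. In the si-NC libraries 21 members exceeded an FPKM of 10 and 32 lay under 1. The highest was AABR07072602.1, a lincRNA gene, at 61.3 ± 4.26 (SD, n = 3). Next came Rn60_15_0937.6 at 49.0 ± 1.55 and LOC102549726 at 44.3 ± 3.34, followed by AABR07011682.1 at 23.8 ± 1.65 and LOC108349594 at 20.9 ± 1.72. Rn60_15_0937.6 and LOC102549726 differed by little more than their SDs, and so did AABR07011682.1 and LOC108349594.

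**Figure D1:**
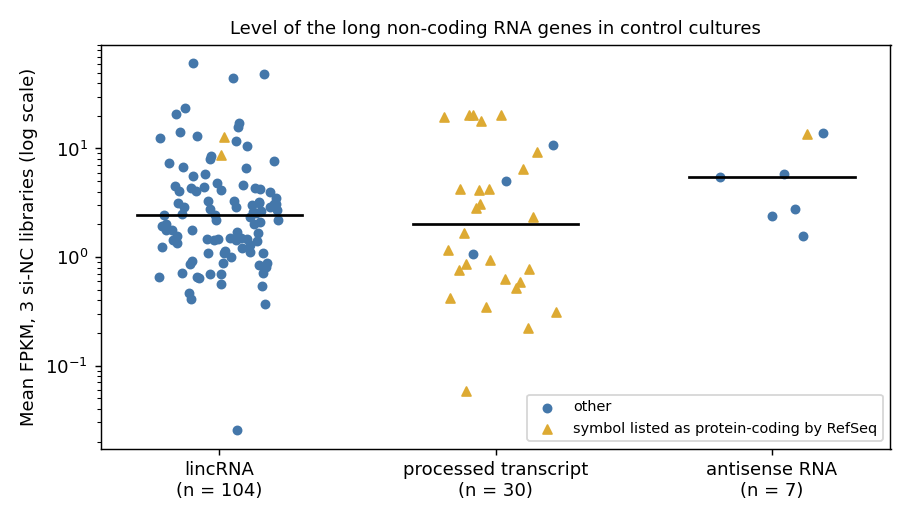
Level of the 141 long non-coding RNA genes in control cultures. Each point is 1 gene, the y axis gives its mean FPKM over the 3 si-NC libraries on a log scale, the x axis the listed biotype, horizontal lines mark medians, and triangles mark genes whose symbol RefSeq lists as protein-coding. Triangles make up most of the processed transcripts and few of the lincRNA genes.

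The annotation of the class is mixed. Matched by symbol or older symbol to RefSeq (assembly GRCr8), 39 members were found, and 30 of these are listed there as protein-coding genes and 9 as lncRNA. The 30 comprise 27 of the processed transcripts, 2 lincRNA genes and 1 antisense RNA gene, and they hold 39.4% of the members' counts. Among them are the 2 members with most counts, Rc3h1, which encodes the RNA-binding protein Roquin-1, and Top2b, which encodes DNA topoisomerase II beta. Further examples are Smg1, which encodes a kinase of nonsense-mediated decay, and Cdk8, the kinase of the Mediator complex. For such genes the counts cannot be read as those of a non-coding RNA. The medians, shares and pairs given for the members include them unless said otherwise.

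Of the 141 members, 139 passed the filter on low counts. With edgeR, 15 of the 139 (10.8%) were called, meaning an adjusted p below 0.05, against 15.2% of all 15513 features tested and 18.1% of the tested protein-coding genes. Higher in si-DYRK1A were 8 members, in a table where 8.03% of all features were called higher, and 7 were lower, where 7.19% of all features were. The share called was thus below the background over all features. At an unadjusted p below 0.05 there were 31. By biotype, 6 lincRNA genes were higher and 7 lower of 102 tested, 2 processed transcripts were higher of 30, and none of the 7 antisense RNA genes passed.

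Fold changes were centred near zero, with 69 members positive and 70 negative. The median size of the log2 fold change was 0.27 among the members and 0.18 among all features, and the median SE was 0.239 against 0.147. Members with 100 to 199 counts had a median SE of 0.326 and 5 of 53 were called (9.43%, against 5.51% of all features with as many counts). Those with 200 to 999 counts had 4 of 62 called (6.45% against 10.5%), and those with 1000 or more had 6 of 24 (25.0% against 24.8%). At 1000 counts and above, where the median SE fell to 0.0924, the members were called about as often as other features.

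In 38 of the 139 tested members (27.3%) the 3 si-NC and the 3 si-DYRK1A libraries did not overlap, against 31.5% of all features tested. This held for 14 of the 15 called members, the exception being AABR07072602.1. An exact permutation test of 3 libraries against 3 cannot give a p below 0.1, so all adjusted p-values below are from the edgeR quasi-likelihood test over all features unless another test is named.

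**Figure D2:**
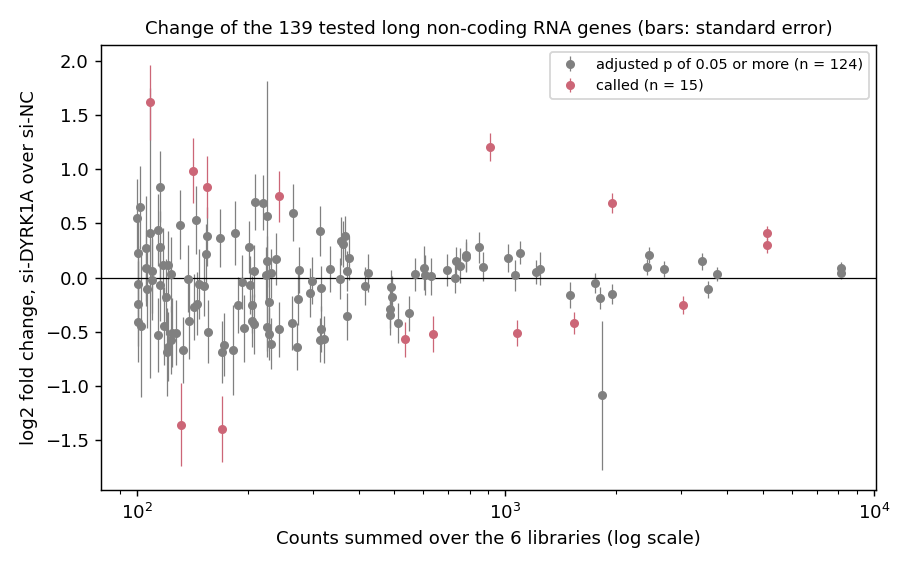
Change of the 139 tested long non-coding RNA genes. The x axis gives counts summed over the 6 libraries on a log scale, the y axis the log2 fold change of si-DYRK1A over si-NC, and bars the SE. The 15 called genes, 8 above and 7 below zero, lie over the whole range of counts, while the spread of the others narrows toward high counts.

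The clearest change was in LOC102553018, a lincRNA gene (ENSRNOG00000057834) at chr2:251534907-251607676 on the plus strand of Rnor_6.0, which RefSeq also lists as lncRNA. It had 84, 80 and 115 counts in si-NC and 220, 202 and 211 in si-DYRK1A. Every si-DYRK1A library stood far above every si-NC library. Mean CPM (counts scaled to a common library size) rose from 8.15 ± 1.43 to 18.9 ± 0.558 (SD, n = 3 each), a log2 fold change of 1.21 (SE 0.131, adjusted p = 1.13e-06). The call was kept in each of the 19 other fits tried, with log2 fold changes from 1.09 to 1.34.

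Several genes around LOC102553018 also differed. Cyr61, which encodes the matricellular growth regulator CCN1, a well-known target of the transcriptional co-activator YAP, starts 2.6 kb away on the opposite strand, head-to-head with the lincRNA gene. Its log2 fold change was -0.25 (SE 0.0464, adjusted p = 0.000579), the direction opposite to that of LOC102553018. Ddah1, which encodes an enzyme that breaks down the nitric oxide synthase inhibitor asymmetric dimethylarginine, lies 26.8 kb downstream on the same strand and changed by 0.26 (SE 0.0412, adjusted p = 0.000141). Col24a1, a fibrillar collagen gene 100 kb upstream, changed by 0.53 (SE 0.113, adjusted p = 0.00234). The protein-coding gene listed nearest, AABR07013701.1, is 163 bases away and had a log2 fold change of -0.01 (adjusted p = 0.98). An unannotated transcript that begins at the same base as LOC102553018 and lies within it on the same strand had 719 counts. Its log2 fold change was 0.27 (SE 0.136, adjusted p = 0.199). Reads of the shared stretch could be split between both rows, which was not tested.

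Promoter sequences are shown for 3 genes, being the called members that RefSeq lists as lncRNA and the protein-coding partner of a called member that starts 123 bases from it. Each is the 250 bases before the start of the gene in RefSeq (GRCr8), written 5′ to 3′ in the direction of the gene, with each CG dinucleotide in capitals. CG-rich stretches mark many promoters of widely expressed genes.
LOC102553018 (chr2:237225471-237225720, plus strand): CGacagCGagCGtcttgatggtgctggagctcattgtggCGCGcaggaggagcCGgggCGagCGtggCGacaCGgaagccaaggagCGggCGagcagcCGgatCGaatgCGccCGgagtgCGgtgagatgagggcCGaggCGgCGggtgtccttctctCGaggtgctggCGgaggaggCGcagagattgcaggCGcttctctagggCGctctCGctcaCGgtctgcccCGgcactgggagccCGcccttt
LOC102549726 (chr20:3880958-3881207, plus strand): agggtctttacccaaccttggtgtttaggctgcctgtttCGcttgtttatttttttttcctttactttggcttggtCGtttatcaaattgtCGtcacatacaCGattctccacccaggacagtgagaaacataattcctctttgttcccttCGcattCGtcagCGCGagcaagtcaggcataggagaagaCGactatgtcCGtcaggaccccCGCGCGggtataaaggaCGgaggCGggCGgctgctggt
Pkig (chr3:172749665-172749914, plus strand): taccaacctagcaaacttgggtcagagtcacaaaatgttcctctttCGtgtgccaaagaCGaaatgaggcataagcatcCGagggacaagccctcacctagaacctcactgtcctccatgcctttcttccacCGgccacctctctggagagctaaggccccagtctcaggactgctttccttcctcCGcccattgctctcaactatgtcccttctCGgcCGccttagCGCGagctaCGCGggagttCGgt

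The window of LOC102553018 holds 29 CG pairs, and 6.34% of the 27457 promoters in the table hold at least as many (median 6). That of LOC102549726 holds 16 (25.8% have at least as many) and that of Pkig 12 (33.9%). The windows were searched on both strands for TATAAA, the core of the TATA box, for CCAAT, and for GGGCGG, a binding motif of Sp1 and related factors. The first stands in that of LOC102549726 and is found in 13.1% of all promoters. GGGCGG is in all 3 windows and in 32.4% of all promoters, and CCAAT is in none of the 3 and in 34.3% of all. A promoter was found for 27 members, 7 of them listed as lncRNA by RefSeq, and these 7 had 6 to 29 CG pairs with a median of 16.

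LOC102549726 (ENSRNOG00000054031) overlaps the annotated snoRNAs SNORD48 and SNORD52, as a host gene of snoRNAs would, and is listed on the minus strand at chr20:4871264-4873982 of Rnor_6.0 and on the plus strand in GRCr8. CPM values were 73.2, 62.5 and 68.1 in si-NC and 75.6, 86.5 and 88.4 in si-DYRK1A. The groups did not overlap, but the lowest si-DYRK1A library was close to the highest si-NC library. The log2 fold change was 0.30 (SE 0.07, adjusted p = 0.00535). Listed RT1-CE genes, which encode class I antigens of the rat major histocompatibility complex, overlap it on the same strand, so reads could be split between these rows. The call was lost in the fits to FPKM values, where the adjusted p was between 0.0846 and 0.154.

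AABR07054554.1 (ENSRNOG00000059169, chr3:160045063-160047173, minus strand of Rnor_6.0) starts 123 bases from Pkig, head-to-head with it. Pkig encodes an inhibitor of protein kinase A. AABR07054554.1 had 13, 14 and 21 counts in si-NC and 36, 28 and 30 in si-DYRK1A, so all si-DYRK1A libraries were higher. The log2 fold change was 0.99 (SE 0.299, adjusted p = 0.0261), and the adjusted p rose to at most 0.102 when single libraries were left out, with the call lost for 5 of 6. The call was also lost with DESeq2 (adjusted p = 0.122). The annotated Pkig row has no count, whereas an unannotated transcript with the same limits and strand has 663 counts and changed by 0.61 (SE 0.152, adjusted p = 0.00738). This is the head-to-head arrangement in which both transcripts were higher.

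Among the other members called higher, Rn50_8_0646.1 (ENSRNOG00000053753, a processed transcript with no RefSeq match) had the most counts. Its CPM values were 60.6, 71.4 and 63.9 in si-NC and 93.1, 83.2 and 83.3 in si-DYRK1A, without overlap, and it changed by 0.41 (SE 0.0676, adjusted p = 0.000226). The call was lost in 1 of 19 other fits. AABR07053481.1 changed most of all called members, by 1.62 (SE 0.347, adjusted p = 0.00244), but on few counts. It had 8, 11 and 8 counts in si-NC and 25, 25 and 32 in si-DYRK1A. It thus passed the minimum of 100 counts mainly through si-DYRK1A. The fit that required at least 10 counts in every library did not include it. No protein-coding gene lies within 100 kb of it.

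AABR07050487.1 had 25, 37 and 30 counts in si-NC and 39, 55 and 57 in si-DYRK1A. Its log2 fold change was 0.75 (SE 0.238, adjusted p = 0.0366), and leaving out either of 4 libraries ended the call (adjusted p up to 0.168). So did DESeq2 (adjusted p = 0.146), limma-voom (0.0691) and the fits to FPKM values (0.193 to 0.282). The nearest protein-coding gene, Gpr157 at 21.8 kb, had a log2 fold change of -0.55 (SE 0.217, adjusted p = 0.1). H6pd, which encodes an enzyme of the pentose phosphate pathway in the endoplasmic reticulum, lies 31.4 kb away and also went the other way, by -0.24 (adjusted p = 0.0417). The call of H6pd ended with DESeq2 (adjusted p = 0.106), with limma-voom (0.0815) and in the FPKM fits, and it remained only without si-NC replicate 3 when single libraries were left out (otherwise 0.0736 to 0.186). AABR07052523.2 had 17, 20 and 19 counts in si-NC and 40, 24 and 35 in si-DYRK1A. It lay at the threshold (log2 fold change 0.84, SE 0.286, adjusted p = 0.05 after rounding, just below 0.05) and was called in 5 of the 19 other fits.

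The eighth member called higher was St8sia2 (ENSRNOG00000012031, chr1:135336374-135406700, minus strand of Rnor_6.0). It is listed as a processed transcript, but RefSeq lists it as protein-coding, and the gene is known for a sialyltransferase that makes polysialic acid on the neural cell adhesion molecule. CPM values were 22.2, 22.4 and 21.6 in si-NC and 39.2, 31.5 and 36.2 in si-DYRK1A. The si-NC libraries were within a narrow range and all si-DYRK1A libraries lay above it. The log2 fold change was 0.69 (SE 0.0924, adjusted p = 1.75e-05), and the call was kept in all 19 other fits. St8sia2 is 1 of the 30 members named as protein-coding by RefSeq and the only one of them called. Without these genes 14 of 111 members were called, 7 of them higher. Among the others, Col6a3, a collagen VI chain, had a log2 fold change of 0.69 (SE 0.254, adjusted p = 0.0715), and of 0.79 (adjusted p = 0.03) once the counts of an unannotated transcript that covers it were added.

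**Figure D3:**
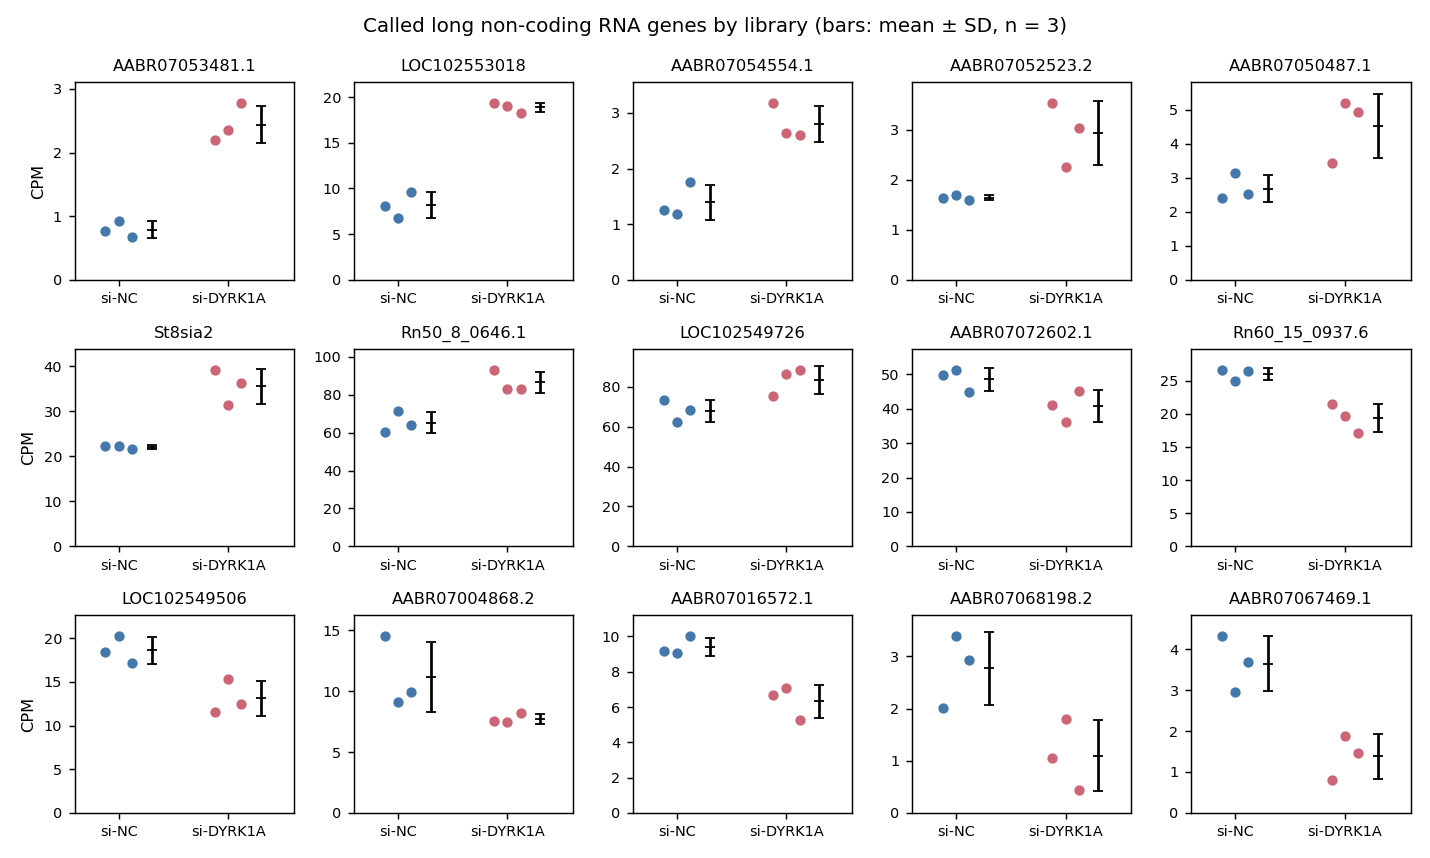
The 15 called long non-coding RNA genes by library. The y axis of each panel gives CPM from 0, points are the 3 si-NC (blue) and 3 si-DYRK1A (red) libraries, and bars give the mean and SD (n = 3). The 8 genes with a positive fold change come first, and the groups overlap in AABR07072602.1 alone.

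Of the members called lower, AABR07067469.1 changed most (ENSRNOG00000053542, chr9:47965251-47970908, plus strand of Rnor_6.0). It had 45, 35 and 44 counts in si-NC and 9, 20 and 17 in si-DYRK1A, with every si-DYRK1A library below every si-NC library. The log2 fold change was -1.40 (SE 0.308, adjusted p = 0.00306). The call was lost in the limma fits to log2(FPKM + 0.1) (adjusted p = 0.0506) and to log2(FPKM + 1) with no filter on FPKM (0.0775). AABR07068198.2 was of similar size (-1.36, SE 0.384, adjusted p = 0.0193) with 21, 40 and 35 counts in si-NC and 12, 19 and 5 in si-DYRK1A. It was no longer called when any of 4 single libraries was left out (adjusted p up to 0.102). Its call was also lost with DESeq2 (adjusted p = 0.0556) and in the fits to FPKM values (0.109 to 0.191). Both reached the minimum of 100 counts mainly through si-NC, and neither entered the fit that required at least 10 counts in every library. Neither has a protein-coding gene within 100 kb.

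Rn60_15_0937.6, a lincRNA gene without introns in the listed model and the second highest of all members in FPKM, had CPM values of 26.6, 24.9 and 26.4 in si-NC and 21.4, 19.6 and 17.1 in si-DYRK1A. The groups did not overlap, and the log2 fold change was -0.42 (SE 0.0989, adjusted p = 0.00483). The call was lost in the limma fit to log2(FPKM + 1) with no filter on FPKM (adjusted p = 0.068). Rn60_15_0937.6 lies on the opposite strand inside the listed body of Mycbp2, a model of 6.36 Mb. LOC102549506 had CPM values of 18.4, 20.2 and 17.2 in si-NC and 11.5, 15.3 and 12.5 in si-DYRK1A (log2 fold change -0.51, SE 0.121, adjusted p = 0.00547). Its call was lost in the fits to FPKM values.

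AABR07016572.1 had CPM values of 9.20, 9.05 and 10.0 in si-NC and 6.68, 7.06 and 5.28 in si-DYRK1A. The log2 fold change was -0.57 (SE 0.163, adjusted p = 0.0192), and the call was lost without si-NC replicate 3 (adjusted p = 0.0605) or without si-DYRK1A replicate 3 (adjusted p = 0.115). It was also lost with DESeq2 (adjusted p = 0.0716) and in the fits to FPKM values (0.0538 to 0.0987). AABR07004868.2 had CPM values of 14.5, 9.13 and 9.95 in si-NC and 7.56, 7.44 and 8.22 in si-DYRK1A (log2 fold change -0.52, SE 0.169, adjusted p = 0.0383). Here si-NC replicate 1 stood well above the other si-NC libraries, and without it the log2 fold change was -0.30 (adjusted p = 0.269). The call was also lost without any of the si-DYRK1A libraries (adjusted p 0.0712 to 0.13). DESeq2 (adjusted p = 0.105), limma-voom (0.1) and the fits to FPKM values (0.143 to 0.245) ended it too.

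AABR07072602.1, the member with the highest FPKM, had CPM values of 49.7, 51.3 and 44.9 in si-NC and 41.0, 36.2 and 45.3 in si-DYRK1A. The highest si-DYRK1A library exceeded the lowest si-NC library. The log2 fold change was -0.25 (SE 0.0839, adjusted p = 0.0461), and the call was lost without any of 4 single libraries (adjusted p up to 0.254). It was also lost with DESeq2 (adjusted p = 0.109), limma-voom (0.0843) and the fits to FPKM values (0.154 to 0.259). Fbn2, which encodes the microfibril protein fibrillin-2, is the nearest protein-coding gene at 34.6 kb, and its annotated row was too low to test. With the counts of the transcripts covering it, Fbn2 had a log2 fold change of -0.17 (adjusted p = 0.0507).

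Unannotated transcripts in the same table lie close to several called members. Of 10 tested members with a tested unannotated transcript within 5 kb in a tail-to-tail arrangement (opposite strands, with the ends facing each other), the pair had the same sign in 9. Among the 5 of these members that were called, the signs agreed in all 5 and 4 of the transcripts were called too. Among the 5 not called, the signs agreed in 4 and 1 transcript was called, where 15.2% of all features were called. Over all arrangements within 5 kb, the signs agreed in 8 of 8 pairs of called members and in 8 of 14 pairs of members not called. The transcript 4 bases from St8sia2 changed by 0.55 (SE 0.0729, adjusted p = 1.6e-05) and the one 65 bases from AABR07067469.1 by -0.96 (SE 0.204, adjusted p = 0.00221). The one 1.3 kb from Rn60_15_0937.6 changed by -0.55 (SE 0.128, adjusted p = 0.00464). Head-to-head, 3 of 7 pairs had the same sign. This grouping was chosen after the values of the called members were seen. Whether the reads of these neighbours come from 1 transcript was not tested, and the use of strand in the counting is not given, so a member and a transcript on the opposite strand may not be fully separated.

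Few of the well-studied long non-coding RNAs are named in the table. Of 95 symbols in 6 lists (snoRNA hosts, microRNA hosts, imprinted, nuclear and chromatin, heart and vessel, and RNAs with small peptides), 6 were found and only Pvt1 was a member. Pvt1, the host gene of a microRNA cluster downstream of the proto-oncogene Myc, had CPM values of 32.3, 34.0 and 34.4 in si-NC and 37.8, 38.8 and 40.1 in si-DYRK1A. Every si-DYRK1A library was above every si-NC library, but the difference did not pass the test (log2 fold change 0.21, SE 0.0763, adjusted p = 0.0677). Myc itself, 57.6 kb away, was testable only with the counts of a covering transcript and had a log2 fold change of 0.03 (adjusted p = 0.974).

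The other symbols found were not members. Tug1, a nuclear lincRNA, and Miat, known from its association with myocardial infarction, had no counts in their annotated rows. Tug1 had a log2 fold change of -0.01 (adjusted p = 0.965) with the counts of a covering transcript. Fendrr, which acts in heart development, had 46 counts in all, the snoRNA host Snhg11 had 40 and the telomerase RNA Terc 38. At the edge of the minimum, Rn60_2_1879.4 had 100 counts and Fam47a 101, with log2 fold changes of 0.55 (SE 0.361) and -0.06 (SE 0.351). Just below it, Irs4 had log2 fold change 0.12 (SE 0.348) and Kantr -0.34 (SE 0.352).

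Of the 9 members that RefSeq lists as lncRNA, 2 were called, LOC102553018 and LOC102549726. The largest fold changes among the other 7 were in LOC102550036 (-0.51, SE 0.319, adjusted p = 0.327), which lies 263 bases from Picalm, a clathrin assembly gene, and LOC100910237 (0.41, SE 0.298, adjusted p = 0.412), 200 bases from the ribosomal protein gene Rps12. With about 2 to 3 CPM in each group, differences of this size could not be told from the spread at this depth.

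Some lincRNA genes varied far more between libraries of 1 group than between groups. LOC100911851 had 39, 16 and 36 counts in si-NC and 118, 8 and 9 in si-DYRK1A, and LOC103689960 had 17, 9 and 21 in si-NC and 57, 3 and 2 in si-DYRK1A. In both, si-DYRK1A replicate 1 was the highest library and the other si-DYRK1A libraries were the lowest. Their log2 fold changes were 0.57 (SE 1.25) and 0.41 (SE 1.34). Without si-DYRK1A replicate 1 these became -1.79 (adjusted p = 0.0162) and -2.55 (adjusted p = 0.018), so that 1 library decided direction and call. LOC100912578 had 203, 517 and 538 counts in si-NC and 362, 121 and 88 in si-DYRK1A, again with si-DYRK1A replicate 1 the highest of its group (log2 fold change -1.09, SE 0.69, adjusted p = 0.41). LOC100909599 had 10, 40 and 10 counts in si-NC and 9, 8 and 26 in si-DYRK1A.

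The 2 members that did not pass the filter were of the same kind. LOC100909609 had 1, 0 and 3 counts in si-NC and 41, 3 and 65 in si-DYRK1A, and AABR07051308.1 had 87, 4 and 31 in si-NC and 3, 2 and 0 in si-DYRK1A. DESeq2, run without that filter, called both, in a fit where 11.3% of all features tested were called. Whether these rows share reads with similar copies elsewhere in the genome was not tested, and their values are uncertain for that reason.

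**Figure D4:**
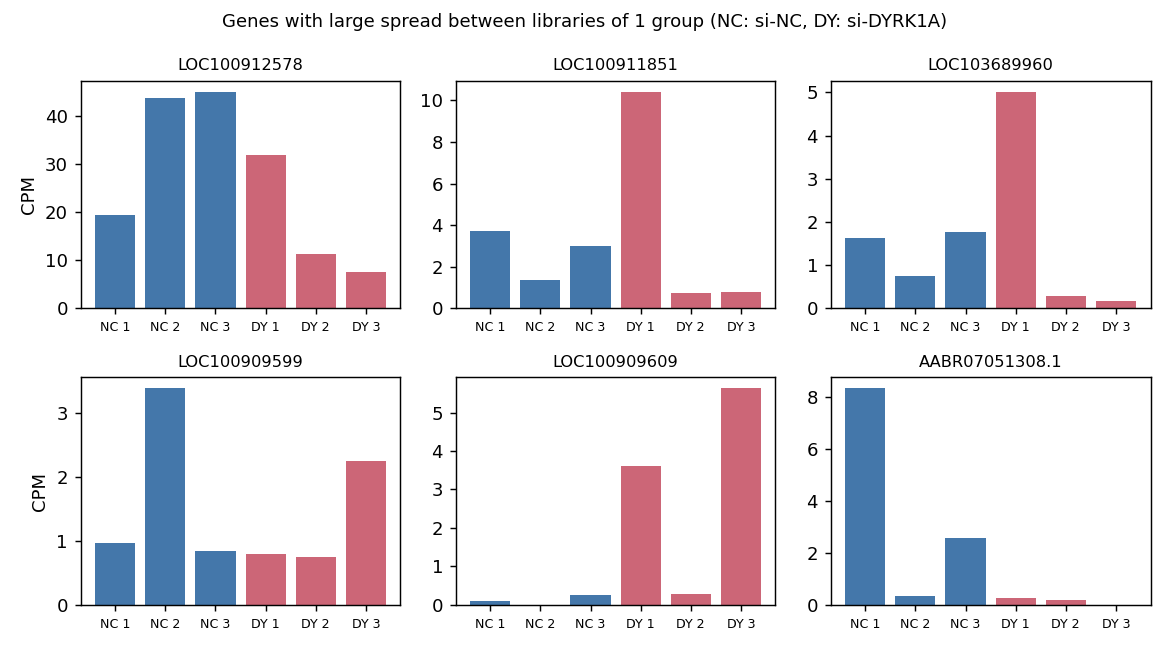
Long non-coding RNA genes with a large spread between libraries of 1 group. Bars give CPM, from 0, in each of the 3 si-NC (NC, blue) and 3 si-DYRK1A (DY, red) libraries. LOC100911851 and LOC103689960 have their highest bar in si-DYRK1A replicate 1 and their lowest bars in replicates 2 and 3.

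The nearest protein-coding gene within 100 kb was then read for each member. Such a neighbour was found for 122 members, 121 different genes. In 11 pairs the genes lay head-to-head within 5 kb, at a median of 0.179 kb. In 23 pairs the member lay downstream of its neighbour on the same strand (median 7.89 kb), in 24 it lay upstream on the same strand (11.6 kb), and in 48 the strands were opposite in other arrangements (18.2 kb). The gene bodies overlapped in 11 pairs on opposite strands and 5 on the same strand.

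Only 52 of the 121 neighbours passed the filter in their annotated rows. Of these, 14 (26.9%) were called, 8 higher and 6 lower, where 18.1% of the tested protein-coding genes were called. This count was not stable, since it fell to between 6 and 13 when single libraries were left out. It was 6 without si-DYRK1A replicate 2, 7 without replicate 1 and 8 without replicate 3 of si-DYRK1A, and 8 without si-NC replicate 1. With the counts of covering unannotated transcripts added, 74 neighbours were tested and 18 (24.3%) called, 10 higher and 8 lower, where 17.0% of the tested protein-coding genes and 15.6% of all features were called.

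Only 3 of the 15 called members had a nearest neighbour that was tested, and in 1 of these pairs both were called. This was AABR07016572.1 with Slc1a4, a transporter of alanine, serine and cysteine, 96.1 kb away, which changed by -0.14 (SE 0.0448, adjusted p = 0.0365). The call of Slc1a4, and with it the pair, ended with the replicate block (adjusted p = 0.0748), with DESeq2 (0.0589), with limma-voom (0.0503) and in the FPKM fits. With single libraries left out it remained only without si-NC replicate 3 (otherwise 0.076 to 0.138). With covering transcripts added, 6 called members had a tested neighbour, and the pair of AABR07054554.1 and Pkig joined the first. Beyond the nearest gene, 19 protein-coding genes within 100 kb of called members were tested and 7 (36.8%) were called. The share of all tested protein-coding genes was 18.1%. With covering transcripts added, 8 of 24 (33.3%) were called, against 17.0%. Cyr61, Ddah1 and Col24a1, all near LOC102553018, are among the 7, as are H6pd and Slc1a4, whose calls were not stable.

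The directions of member and neighbour agreed in 26 of 52 pairs, or 40 of 73 with covering transcripts added. Pearson's r over pairs was 0.13 and Spearman's rho 0.14 (n = 52 pairs), or 0.26 and 0.27 (n = 73 pairs), with all pairs sharing the same 6 libraries. By arrangement, the sign was shared in 12 of 16 pairs with the member downstream on the same strand, 7 of 15 with the member upstream on the same strand, 6 of 8 overlapping on opposite strands, 2 of 7 head-to-head and 13 of 27 of the others on opposite strands. These counts are small, and no difference between arrangements was tested.

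**Figure D5:**
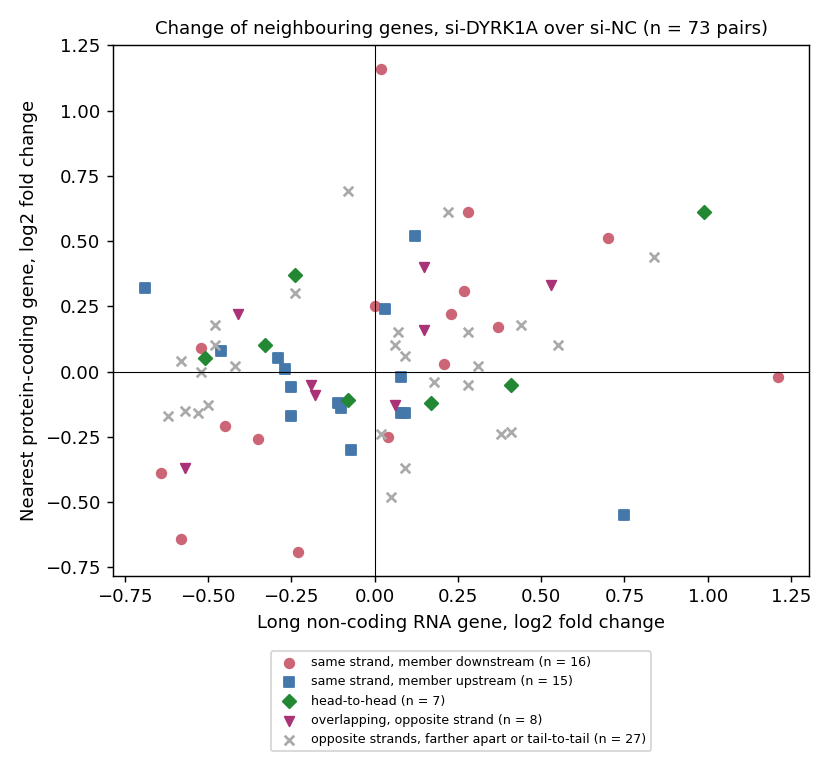
Change of long non-coding RNA genes and of their nearest protein-coding genes. Each of the 73 points is a pair tested on both sides, the x axis gives the log2 fold change of the long non-coding RNA gene and the y axis that of its neighbour with covering transcripts added (si-DYRK1A over si-NC), and colours and symbols give the arrangement. Pairs with the member downstream on the same strand have the same sign in 12 of 16, while the points as a whole scatter over all 4 quadrants.

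Some pairs with a called neighbour were close together. Rn60_15_0518.2 begins 881 bases downstream of Egr3, an immediate early transcription factor gene. It had 61, 62 and 67 counts in si-NC and 45, 31 and 49 in si-DYRK1A, without overlap (log2 fold change -0.58, SE 0.205, adjusted p = 0.0606), and Egr3 changed by -0.63 (SE 0.108, adjusted p = 0.000281). Rn50_5_0825.2, 2.5 kb downstream of Alad, an enzyme of haem synthesis, had a log2 fold change of -0.64 (SE 0.318, adjusted p = 0.201) beside -0.39 (adjusted p = 0.0128) for Alad. The call of Alad ended in the FPKM fits (adjusted p 0.113 to 0.198) and without si-DYRK1A replicate 1 (adjusted p = 0.0569). Rn50_1_0435.2, 1.8 kb downstream of Myct1, had 0.28 (SE 0.145, adjusted p = 0.231) beside 0.61 (SE 0.124, adjusted p = 0.00151) for Myct1. In these 3 pairs the member lies just past the end of its neighbour on the same strand and had the sign of its neighbour without passing the test. Whether its counts are read-through from the neighbour was not tested.

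In other close pairs the neighbour passed the test and the member did not. Penk, which encodes the enkephalin precursor, changed by 0.52 (SE 0.0506, adjusted p = 2.9e-07), while LOC100912510, 1.0 kb from it, had a log2 fold change of 0.12 (SE 0.339, adjusted p = 0.869). Rarb, a retinoic acid receptor gene 52 bases from Top2b, changed by -0.37 (adjusted p = 0.0321) beside 0.09 (SE 0.0516, adjusted p = 0.263) for Top2b. The call of Rarb ended with DESeq2 (adjusted p = 0.119), with limma-voom (0.0527), in the FPKM fits (0.101 to 0.177) and without replicate 1 or 2 of either group (0.0712 to 0.182). Arl6ip1, 4.6 kb from Smg1, changed by 0.24 (SE 0.0427, adjusted p = 0.000407) beside 0.03 (SE 0.0656, adjusted p = 0.855) for Smg1. RefSeq lists both Top2b and Smg1 as protein-coding. The 95% interval of LOC100912510 was wide, from -0.54 to 0.78, and included the value of Penk. Those of Top2b (-0.01 to 0.19) and Smg1 (-0.10 to 0.15) did not include the values of their neighbours.

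Proteins that bind or process long non-coding RNAs were read from lists, in a table where 9.01% of the tested protein-coding genes were called higher and 9.06% lower. With covering transcripts added these shares were 8.41% and 8.54%. Of 8 tested paraspeckle proteins, 2 were higher, Nono (0.18, SE 0.0409, adjusted p = 0.00452) and Hnrnpk (0.26, SE 0.0502, adjusted p = 0.000836). With covering transcripts added 13 were tested and 3 were higher, with Dazap1 (0.29, SE 0.079, adjusted p = 0.0147) joining. Of 7 tested core proteins of snoRNA particles, 3 were higher, Nop58 (0.14, adjusted p = 0.0409), Nop10 (0.25, adjusted p = 0.0329) and Ruvbl2 (0.17, adjusted p = 0.0328). These 3 calls lay near the threshold, and 8 proteins with summed counts again gave 3. DESeq2 ended those of Nop58 (adjusted p = 0.0953) and Ruvbl2 (0.124), as did the replicate block (0.0679 and 0.0561). That of Nop10 ended with library size only (adjusted p = 0.0546) and with upper-quartile normalization (0.062). Leaving out single libraries ended the calls of Nop58 and Ruvbl2 in 5 of 6 fits each and that of Nop10 in 4 of 6 (adjusted p up to 0.205). None of 8 tested nonsense-mediated decay factors and none of 12 tested subunits and adaptors of the nuclear RNA exosome passed. With covering transcripts added, 1 of 12 decay factors was higher and none of 15 exosome proteins passed. The decay factor was Upf1, the helicase at the centre of the pathway, with 0.42 (SE 0.0978, adjusted p = 0.00416) in summed counts and -0.03 (SE 0.337, adjusted p = 0.97) in its annotated row. The medians of the log2 fold change in annotated rows were 0.04, 0.09, 0.08 and 0.10 for these lists in this order, against 0.002 over all features. Of 15 tested imprinted protein-coding genes, which in many cases share a locus with a long non-coding RNA, 3 were higher, Igf2 (0.47, adjusted p = 1.62e-07), Dio3 (1.27, adjusted p = 6.29e-06) and Mest (0.71, adjusted p = 6.36e-09), and Ndn was lower (-0.27, adjusted p = 0.00065). With covering transcripts added, 19 were tested, 6 higher and 1 lower, and the genes that joined were Peg3 (0.43, adjusted p = 0.00253), Zim1 (0.35, adjusted p = 0.000186) and Dcn (0.44, adjusted p = 0.0408), which is also a fibroblast marker. Dcn had 0.25 (adjusted p = 0.332) in its annotated row. Dio3 is listed with the biotype pseudogene, so the shares of protein-coding genes above do not include it. The long non-coding RNAs of those loci on the lists were not found under their symbols.

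Primary cardiomyocyte cultures hold other cells as well, and long non-coding RNAs can be specific to a cell type. The marker counts below stand against 8.03% of all features called higher and 7.19% called lower. The summed CPM of cardiomyocyte markers was 11600 to 11800 in si-NC and 12800 to 13200 in si-DYRK1A, with 3 of 4 tested markers higher, while the annotated rows of Myh6, Myh7, Tnni3 and Mybpc3 were at 0. Endothelial markers summed to 170 to 189 and to 138 to 144, with 3 of 6 lower, and Cldn5 at 0. Fibroblast markers summed to 21500 to 26200 and 20400 to 21100 (2 of 6 higher, Pdgfra at 0), and macrophage markers to 252 to 267 and 258 to 302 (2 of 7 higher, Cd68 at 0). Smooth muscle and pericyte markers summed to 689 to 722 and 710 to 729, with none of 3 called and Acta2 and Myh11 at 0. Erythroid markers (26.2 to 39.0 and 32.0 to 46.1) had none of 3 called, and Schwann and neural markers (22.7 to 24.4 and 17.7 to 21.2) had 1 of 5 lower. The part of these differences in the changes of the long non-coding RNA genes was not tested, and in bulk RNA fewer cells of a type and less RNA per cell cannot be told apart.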

How the data were processed

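RNA-seq data from 6 libraries (3 si-NC and 3 si-DYRK1A) were analysed, grouped by the sample labels. The authors deposited raw counts per gene and FPKM values, in which each count is divided by gene length and by a constant per library. Their methods map reads to Rnor_6.0 with HISAT2, whereas the submitters' processing notes name mm8 and Bowtie 0.12.2, and the rat gene identifiers fit the former. Which tool counted the reads, with which annotation and whether by strand, is not given in the sources used here. A TruSeq kit is named in the labels and a NEBNext kit in the methods. All columns of values could be assigned to a sample. Positions are those of the deposited tables (Rnor_6.0). Promoters and gene types came from RefSeq (GRCr8). The label antisense_RNA was read as antisense.

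Counts were tested with edgeR 4.0.16 in R 4.3.3 (quasi-likelihood, robust, TMM, filterByExpr with a minimum count of 10 in 3 or more libraries and 15 in total). Two-sided p-values were adjusted by Benjamini-Hochberg over all 15513 features tested, with a threshold of 0.05. They set the difference between the groups against the spread between these libraries. CPM was computed from the counts with TMM factors. For genes and transcripts that cover at least 50% of them on the same strand, and no other annotated gene, summed counts were also tested. The alternatives were DESeq2 1.42.0, limma 3.58.1 (voom, and log2(FPKM + 1) or log2(FPKM + 0.1)), other normalizations and filters, left-out libraries and a replicate block. Scripts were tested on simulated data. The members, lists and tests were chosen with earlier results of these data known.

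Members named were the 10 called with the smallest p, the 6 with the largest change in each direction among called members whose groups did not overlap and whose mean log2 CPM was 1 or more, the 10 with the highest FPKM in si-NC, members of the lists, called members with a called neighbour, and those next to the count minimum. The genes with large spread, the close pairs and other flanking genes were chosen after their values were seen. Same-numbered libraries of the groups did not deviate together (correlations 0.0631, -0.024 and -0.00698), so the numbers were not taken as pairs. A member that the naming rule picks is not reported here.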

Additional observations from a re-analysis of the deposited data

How the results depend on the processing

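The number of members called was 15, of which 8 were higher and 7 lower. In limma fits to log2(FPKM + 1) and log2(FPKM + 0.1) it was 8 in both, with 2 and 1 lower. Without the filter on FPKM it was 3, all higher and 0 lower (limma). An adjusted p below 0.01 left 8 (5 higher, 3 lower), and a log2 fold change of 1 or more in size left 4 (2 and 2). Members overlapping no other feature gave 9 of 90 (3 higher), and a minimum of 200 counts 5 higher. DESeq2 called 10 (6 higher, 4 lower), of which 8 were among the 15. It lost AABR07004868.2, AABR07016572.1, AABR07050487.1, AABR07052523.2, AABR07054554.1, AABR07068198.2 and AABR07072602.1, and gained LOC100909609 and AABR07051308.1. Both gained members reached the count minimum mainly through 1 group. Leaving out single libraries gave 10 to 14 members, 5 to 7 higher and 4 to 7 lower. The fewest higher calls came without si-NC replicate 1 and the fewest lower calls, 4, without si-DYRK1A replicate 3. The replicate block gave 13 members (7 higher, 6 lower), losing AABR07052523.2 and AABR07072602.1, and 12 neighbours in place of 14. Neighbours called numbered 8 with DESeq2, 7 in both filtered FPKM fits, 4 in the unfiltered one, 6 at an adjusted p below 0.01, 1 at a log2 fold change of 1 or more in size, and 6 to 13 with single libraries left out. Of 61 named genes, signs turned in 10, all of them with an adjusted p above 0.05 in the reported test. With single libraries left out, Rc3h1 ranged from 0.00 to 0.07, Fam47a from -0.36 to 0.09 (also 0.05), Irs4 from -0.04 to 0.28, LOC100909599 from -1.16 to 0.50, LOC100912510 from -0.16 to 0.30, AABR07013701.1 from -0.22 to 0.21, LOC100911851 from -1.79 to 1.06 and LOC103689960 from -2.55 to 0.96. Upf1 ranged from -0.24 to 0.08 and turned to 0.42 (adjusted p = 0.00416) in summed counts and 0.00 with limma-voom. Smg1 came to 0.00 with library size only, and AABR07013701.1 to 0.02 with limma-voom and 0.00 in the FPKM fits. LOC100911851 turned to -0.37 with limma-voom and -0.25 with log2(FPKM + 0.1). LOC103689960 turned to -0.89 and -0.67 in these fits, to -0.06 with log2(FPKM + 1) with or without the filter and to -0.15 with the replicate block. The cause was not tested. Depth limits most members, since the median SE of 0.239 hides changes of that size.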
